A study of Mus musculus with 8 samples.

Results

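Among enteroendocrine cells sorted from mouse intestinal organoids, 162 of 1006 kept cells devoted at least 5% of their transcripts to Kcnq1ot1, a long nuclear non-coding RNA, and these Kcnq1ot1-rich cells are described here. A cell was kept when its well held at least 2000 transcripts outside the spike-in and mitochondrial rows, which 1006 of 3072 wells did, and the same total was the denominator of the Kcnq1ot1 share. The remaining 844 kept cells of the same plates and BMP4 conditions served as the comparison. The rich cells were chosen by their Kcnq1ot1 share, so that its values are given as a description only, without a test.

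The organoids came from C57BL/6 mice and carried 1 of 3 hormone reporters: Tac1-Cre (tachykinin 1), Gip-Cre (glucose-dependent insulinotropic polypeptide) or Gcg-Venus (proglucagon). Live reporter-positive cells were sorted 1 to a well into 8 plates of 384 wells and processed by SORT-seq, in which a poly-T primer carries a well barcode and a molecular identifier. All conditions were present on 5 plates, in column blocks: untreated cells in columns 1 to 6, cells given BMP4 for 24 h in columns 7 to 12 and cells given BMP4 for 4 days in columns 13 to 24. They were 2 Gcg plates, 1 Gip plate and 2 Tac1 plates, and 3 further Tac1 plates held 1 condition each (1 with 24 h, 2 with 4 days of BMP4). The sources used here give neither the dose of BMP4 nor whether plates came from separate organoid cultures. The p-values of tests over plates therefore measure a spread between plates that can be technical. The reporter marks cells that have switched on 1 hormone gene, so cells of other endocrine types enter a plate only in part. The 384 well barcodes are shared by all 8 plates by design.

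Kcnq1ot1 is transcribed antisense to the potassium channel gene Kcnq1, from the paternal chromosome, and stays in the nucleus, where it silences neighbouring genes of the Kcnq1 imprinted domain in cis. In plate-based single-cell work a high Kcnq1ot1 share has been used as a sign of a poor-quality cell and such cells have been set aside before clustering. Enteroendocrine cells are normally dominated by messenger RNAs of peptide hormones and of the granules that store them. BMP signals act along the villus, switch on the Id genes, and shift the hormones that these cells make.

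In GENCODE M21 on GRCm38 (mm10), Kcnq1ot1 (ENSMUSG00000101609) spans chr7:143203458-143296549 on the minus strand as 1 transcript of 93092 bases without introns. Because the assay primes on stretches of A, the runs of A inside this transcript are shown. It holds 5 runs of at least 15 A, and the longest 3 are printed 5′ to 3′ as transcribed, with the run in capitals and 15 flanking bases on each side in lower case.
Run of 41 A, chr7:143226930-143227000, minus strand: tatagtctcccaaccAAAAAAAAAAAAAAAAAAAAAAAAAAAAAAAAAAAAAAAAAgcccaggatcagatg
Run of 23 A, chr7:143222761-143222813, minus strand: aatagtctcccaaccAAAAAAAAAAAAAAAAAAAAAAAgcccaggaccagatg
Run of 22 A, chr7:143281147-143281198, minus strand: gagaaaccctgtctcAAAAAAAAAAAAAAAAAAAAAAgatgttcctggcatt
The flanks of the 23 A run equal those of the 41 A run at 28 of 30 positions. The deposited counts carry no read positions, so whether transcripts were counted from these runs was not tested.

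The Kcnq1ot1 share of the rich cells ran from 5.19% to 37.1% with a median of 18.2%, against a median of 0.387% in the other kept cells. A rich cell held a median of 693 Kcnq1ot1 transcripts, and another kept cell 30.1. Of the 162 cells, 34 lay between 5 and 10%, 60 between 10 and 20% and 68 at 20% or more. The threshold did not fall in a gap: 15 cells had 4 to 5% (4.02 to 4.90%), 10 had 5 to 6% (5.19 to 5.87%) and 2 had 7 to 8%. Between 1 and 5% lay 163 cells, and 681 had less than 1%. The cells just outside the threshold held a median of 185 Kcnq1ot1 transcripts and those just inside it 195. The share thus formed a dense group under 1% and a broad tail, with rich cells on every plate.

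**Figure D1:**
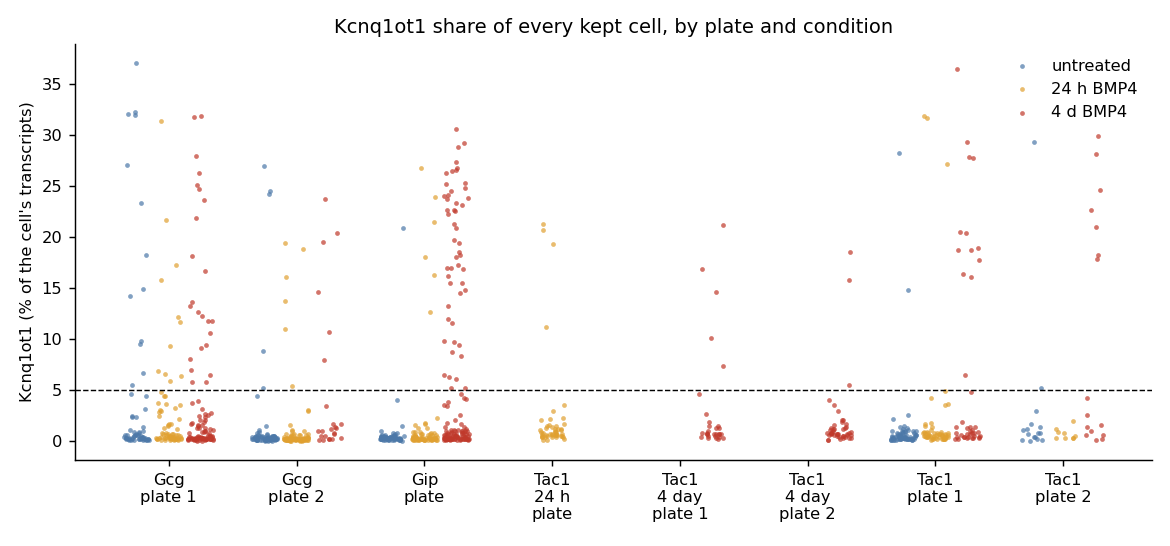
Each point is 1 kept cell. The y axis gives Kcnq1ot1 as a percent of the cell's transcripts outside spike-in and mitochondrial rows, the x axis the plate, the colour the BMP4 condition, and the dashed line the 5% that defines a rich cell. Rich cells appear on all 8 plates and reach 37.1%, while 681 of 1006 kept cells lie under 1%.

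Rich cells made up 48 of 229 kept cells on Gcg plate 1, 17 of 182 on Gcg plate 2, 58 of 268 on the Gip plate, 18 of 163 on Tac1 plate 1 and 9 of 41 on Tac1 plate 2. The plates of 1 condition gave 4 of 48 (Tac1, 24 h), 5 of 30 and 3 of 45 (Tac1, 4 days). Over all plates the share was 8.04% of kept untreated cells (23 of 286, 95% Wilson interval 5.42 to 11.8%), 8.98% at 24 h (30 of 334, 6.36 to 12.5%) and 28.2% at 4 days (109 of 386, 24.0 to 32.9%). These intervals cover counting error only.

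On the 5 plates with all conditions the share at 4 days was 25.3%, 25%, 37.8%, 31.7% and 43.8% of kept cells on Gcg plate 1, Gcg plate 2, the Gip plate, Tac1 plate 1 and Tac1 plate 2. The untreated shares in the same order were 20.3%, 6.67%, 1.59%, 2.94% and 12.5%. Every 4 day share thus exceeded every untreated share. The mean was 32.7% against 8.80%. All 5 plates were higher at 4 days, by 23.9 ± 12.4 points on average (SD over plates), and the exact permutation p, two-sided and by flipping the sign of each plate's difference as in all such tests below, was 0.0625, which 5 plates cannot go below. At 24 h the mean was 7.41%, a difference of -1.39 ± 7.48 points from the same untreated wells, higher on 3 of 5 plates (exact permutation p = 0.75; with Benjamini-Hochberg adjustment over these 2 comparisons the exact p was 0.125 at 4 days and 0.75 at 24 h).

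The denominator bears on this result. On Gcg plate 2 the other kept cells filled 72.9% of untreated wells and 9.38% of 4 day wells, while the rich cells filled 5.21% and 3.12%. On the Gip plate the rich cells went from 1.04% of untreated wells to 26.6% of 4 day wells. As a percent of all wells the difference at 4 days was 5.73 ± 11.4 points (SD over 5 plates), higher on 3 of 5 plates (exact permutation p = 0.375), an alternative chosen after seeing the data. The 4 day block is also the right-hand side of the plate, so condition and column cannot be told apart. Within it, columns 13 to 18 gave 56 of 171 cells (32.7%) and columns 19 to 24 gave 45 of 140 (32.1%). On the 2 Tac1 plates with only 4 day cells the share was 16.7% and 6.67%.

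**Figure D2:**
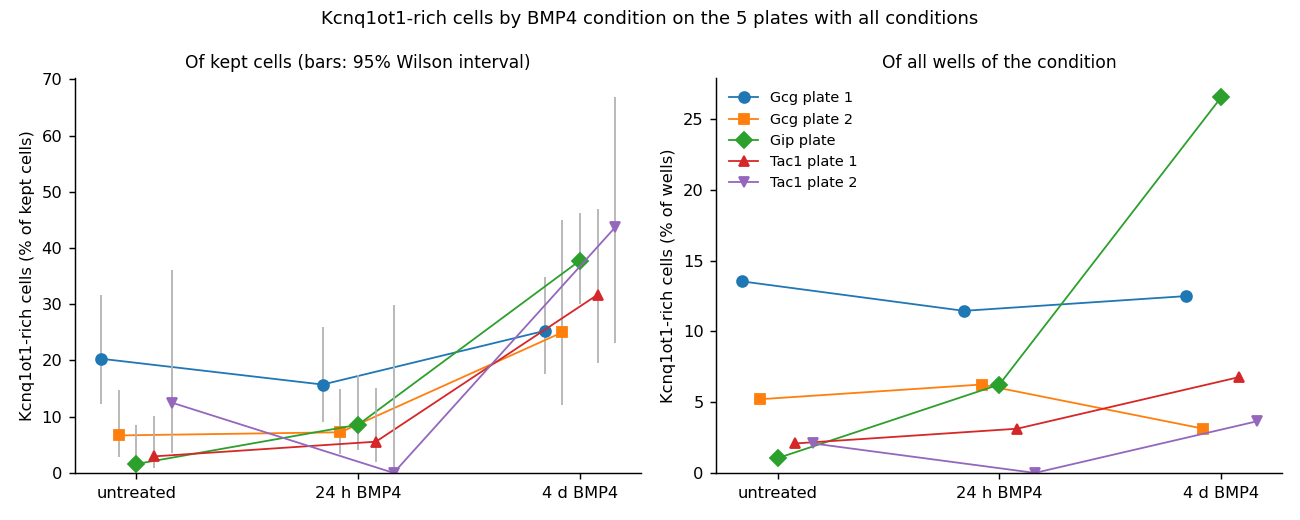
Rich cells by BMP4 condition on the 5 plates that hold all conditions, 1 line per plate. The left y axis is percent of kept cells with 95% Wilson intervals as bars, the right y axis percent of all wells of the condition. On the left every plate is higher at 4 days than untreated, whereas on the right Gcg plate 1 goes from 13.5% to 12.5% and Gcg plate 2 from 5.21% to 3.12%.

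Rich cells were poorer in other RNA on most plates but not on all. They held a median of 3078 transcripts outside Kcnq1ot1 (1301 to 40115), and the other kept cells 6513 (1961 to 76278). For plate-wise comparison, cells were paired within a plate and condition wherever both sides had at least 5 cells, which gave 11 pairs on 6 plates with 147 rich and 556 other cells. The log2 ratio of median transcripts without Kcnq1ot1 was -1.42 on Gcg plate 1, -0.52 on Gcg plate 2, -1.30 on the Gip plate, -0.76 on Tac1 plate 1, -0.18 on Tac1 plate 2 and 0.18 on Tac1 4 day plate 1. The mean was -0.67 ± 0.63 (SD over 6 plates), lower on 5 of 6 (exact permutation p = 0.09375). Among cells of 2000 to 4000 transcripts 25.8% were rich (88 of 341), and among those of 16000 or more 4.05% (6 of 148). Depth is not independent of the rule, since transcripts outside Kcnq1ot1 are part of its denominator. The minimum of 2000 transcripts also let in rich cells with fewer transcripts outside Kcnq1ot1 (from 1301) than other cells (from 1961). The test and the depth classes therefore cannot separate content from the way the cells were chosen. A low content therefore did not mark every plate, and these cells are called by Kcnq1ot1 alone here.

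Spike-in molecules, added in equal amount to each well, gave no single direction. Their share of transcripts, with spike-ins and, unlike the content above, Kcnq1ot1 counted in the total, was higher in rich cells by 1.88 points on Gcg plate 1, 2.38 on Gcg plate 2, 6.28 on the Gip plate and 0.519 on Tac1 4 day plate 1. It was lower by the differences -7.37 on Tac1 plate 1 and -0.100 on Tac1 plate 2. The mean difference was 0.597 ± 4.50 points (SD over 6 plates; exact permutation p = 0.6875), and it was -0.540 without the Gip plate. Mitochondrial transcripts are listed for the Tac1 plates only. Their median share in rich against other cells was 2.93% against 7.38% on Tac1 plate 1, 1.78% against 6.42% on Tac1 plate 2 and 8.95% against 7.35% on Tac1 4 day plate 1 (mean difference -2.50 ± 3.55 points, SD over 3 plates; exact permutation p = 0.5, where 0.25 is the smallest possible). The total of this share includes Kcnq1ot1 and the small group of very abundant RNAs set aside below. In the same plate order, these RNAs held medians of 62.4%, 61.4% and 42.9% of transcripts in all rich cells of the plate. In the other kept cells they held 1.70%, 2.54% and 2.34%. The room they take lowers any other share of that total, and the mitochondrial share without them was not tested.

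At equal depth rich cells showed fewer genes, but not once a small group of very abundant RNAs was set aside. After thinning each cell to 1500 transcripts outside Kcnq1ot1, the median gene number was lower in rich cells on all 6 plates, by differences of -80 (Tac1 4 day plate 1) to -326.5 (Tac1 plate 1), with a mean of -191 ± 93.3 genes (SD; exact permutation p = 0.03125, as low as 6 plates can give, and 0.0625 whenever 1 plate was left out). For thinning, 3 rich cells were too shallow, and without thinning a rich cell showed a median of 1218 genes and another cell 2489. When the 87 genes described next were also set aside and cells thinned to 750 transcripts, which left out 7 rich cells, the difference was 25.8 ± 22.9 genes in the other direction, higher on 5 of 6 plates (exact permutation p = 0.0625; chosen after seeing the data).

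Counts were summed over the rich cells and over the other cells of each pair and compared with edgeR's quasi-likelihood test with the pair as a block, leaving Kcnq1ot1 out of the table. Of 1627 genes tested, 332 were called at an adjusted p under 0.05 (20.4%): 149 higher (9.16%) and 183 lower (11.2%). The rises were concentrated in 87 genes that were at least 8-fold higher (5.35% of those tested), a group drawn after seeing the values and used only for description. For 79 of these 87 the rich and other sums did not overlap over the 11 pairs, against 129 of all 1627 (7.93%). All 87 were called higher under each of the 21 alternatives in which they passed the filter on low counts (54 to 87 of them did). That filter asked for a minimum level in as many sums as there are pairs, so genes scarce in the other cells could enter only through the rich sums. For such genes the filter and the 8-fold cut largely set the missing overlap in advance. The alternatives reuse the same cells and are no independent support.

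The most abundant of them was Gm17821, annotated as a processed pseudogene at chr12:67658527-67669276. Over the 11 pairs it had 51021 to 189489 CPM (counts per 1000000 transcripts outside Kcnq1ot1) in rich cells (median 82928) and 982 to 6622 in the others (median 1907), a log2 change of 6.04 ± 0.51 (SE; adjusted p = 9.7e-15, edgeR). Vmn2r55, a vomeronasal receptor gene at chr7:12651706-12685003, had 36734 to 76874 (median 59881) against 685 to 2652 (median 1639). A630089N07Rik, an uncharacterised coding gene at chr16:98001310-98082450, had 33784 to 111281 (median 48118) against 581 to 3466 (median 1325). Grk4, a kinase of G protein-coupled receptors at chr5:34660379-34755305, had 14537 to 62773 (median 21653) against 214 to 1953 (median 547). None of these 4 genes is a known enteroendocrine product, and for each the lowest rich sum lay above the highest other sum.

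Beside Mid1, a marker of these cells whose log2 change of 6.94 ± 0.48 is given as a description, the largest change among well-measured genes was that of F830016B08Rik at 6.37 ± 0.45, with Gm6602 (6.29 ± 0.36), 4933438K21Rik (6.22 ± 0.43), D630045M09Rik (6.18 ± 0.40) and D830005E20Rik (6.11 ± 0.38) close behind, all higher in 11 of 11 pairs (edgeR, adjusted p of 9.5e-18 or below). A130077B15Rik, a long intergenic RNA, was at 6.08 ± 0.45. Coding genes of unrelated roles were in the same group, such as Lefty2, an inhibitor of Nodal signalling (6.03 ± 0.39), and Tyms, which makes thymidylate for DNA synthesis (5.51 ± 0.34). Tyms was the 1 tested gene of 11 proliferation genes. Of the marker genes given for these cells, Mid1, a microtubule-bound ubiquitin ligase, had 118 to 5868 CPM in rich cells and 6.69 to 65.0 in the others, and Cmah, a sialic acid hydroxylase, 2548 to 4867 against 71.5 to 211. Acer2, a ceramidase, was high in rich cells on the Gcg and Gip plates (1331 to 3708 CPM of the transcripts outside Kcnq1ot1 and the 87 genes, against 21.7 to 56.6 in the others). On the 3 Tac1 pairs Acer2 had 0 counts in rich cells, where a count of 0 allows up to 151 to 265 CPM (3 counts per sum), so it did not mark the rich cells of the Tac1 line.

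Together with Kcnq1ot1 the 87 genes held a median of 45.4% of the transcripts of a rich cell (12.0 to 87.6%) and 1.27% of those of another kept cell (0.167 to 15.7%). Within rich cells of 1 plate, the cells with more Kcnq1ot1 also had more of the 87 genes: Spearman's rho was 0.92 to 0.98 on the 4 plates with at least 15 rich cells, and 0.70 to 0.95 among the other cells of all 8 plates. Both shares have the same total, so these are descriptions of cells that share a library and a denominator. The 2 classes formed 1 continuous line with no break at the threshold.

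**Figure D3:**
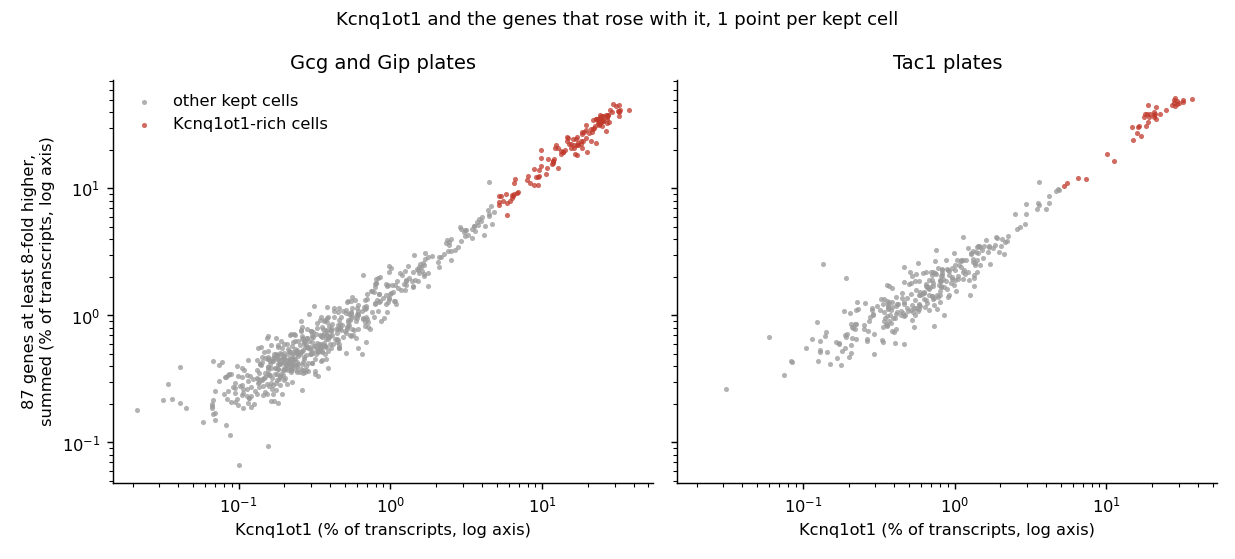
Each point is 1 kept cell (3 cells with a 0 on either axis are not drawn). The x axis is the Kcnq1ot1 share of transcripts and the y axis the summed share of the 87 genes at least 8-fold higher, both on log axes, with the Gcg and Gip plates on the left and the Tac1 plates on the right. Rich cells continue the line of the other cells to summed shares of up to 51.5%.

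The other cells held these RNAs too, and for the most abundant of them the ratio to Kcnq1ot1 was close in both classes. For every 100 Kcnq1ot1 transcripts there were 35.2 to 35.6 of Gm17821 in rich cells of the 3 Gcg and Gip plates and 33.2 to 34.7 in the other cells. On the 5 Tac1 plates the values were 53.4 to 58.2 in rich cells and 54.2 to 62.0 in the others. A630089N07Rik gave 22.5 to 24.4 against 21.6 to 24.0 on the Gcg and Gip plates, and 25.6 to 36.4 against 31.0 to 37.8 on the Tac1 plates. Grk4 gave 10.3 to 10.4 against 8.75 to 9.54, and 16.4 to 19.5 against 16.8 to 20.7. Other ratios differed more. Gm10845 gave 5.31 to 8.19 in rich cells against 11.9 to 24.4 in the others on the Gcg and Gip plates, and 2.59 to 5.84 against 12.7 to 23.5 on the Tac1 plates. Synj2bp, a mitochondrial outer membrane protein gene, gave 1.98 to 2.44 against 4.88 to 6.52, and 2.11 to 3.47 against 4.00 to 7.37. For both genes the classes did not overlap on either kind of plate. On the Gcg and Gip plates alone the classes were also apart for Cmah (1.60 to 2.16 against 2.29 to 2.62), A130077B15Rik (4.67 to 5.28 against 3.43 to 4.52) and F830016B08Rik (1.08 to 1.33 against 0.839 to 1.03), as they were for Gm17821 and Grk4. Across the 88 RNAs the rank correlation of rich with other sums was 0.73 to 0.86 over the 8 plates; they were chosen for similar rises, which limits how far their proportions could differ. The Tac1 files and the Gcg and Gip files differ in the genes they list and in rounding, so the gap between the 2 groups of plates cannot be told apart from the making of the files.

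**Figure D4:**
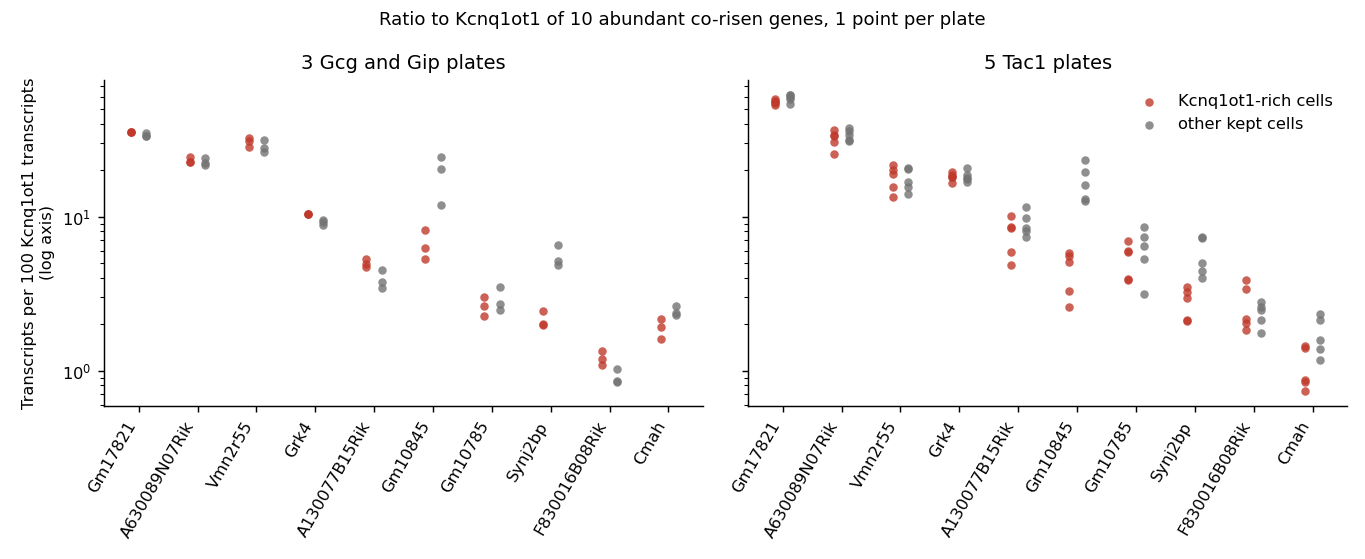
Transcripts per 100 Kcnq1ot1 transcripts (log axis) for 10 abundant genes of the 87, with 1 point per plate for rich cells (red) and other kept cells (grey); the left panel holds 3 plates and the right panel 5. Gm17821 lies at 35.2 to 35.6 in rich and 33.2 to 34.7 in other cells of the Gcg and Gip plates, while Gm10845 and Synj2bp lie lower in rich cells.

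A search of thinned cells, which includes the values that chose the rich cells, led to many of these names. Over 962 cells in 15 groups of plate and condition, the genes whose level followed the Kcnq1ot1 share most closely were Gm17821 (median Spearman rho 0.85), A630089N07Rik (0.77), Grk4 (0.76), Vmn2r55 (0.74), A130077B15Rik (0.63), Gm10785 (0.62), F830016B08Rik (0.56), D830005E20Rik (0.52), Synj2bp (0.51) and the telomere protein gene Pot1b (0.51), out of 319 genes seen in at least 20% of rich cells. At the other end stood the translation elongation factor Eef1a1 (-0.39). All transcripts of a cell share 1 total, which lowers the rho of genes outside the rising group.

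A smaller share of the 87 genes than of the rest of the table was annotated as protein coding. Of the 83 found in GENCODE M21, 50 are protein coding and 33 are of other types, among them 15 lincRNAs and 6 antisense RNAs, so 60.2% were coding against 97.4% of all tested genes with a match. Genes scarce in the other cells entered the table only through the rich sums, so this contrast cannot be told apart from the filter on low counts. They lie on 18 chromosomes together with Kcnq1ot1 and Acer2, and so do not form a neighbourhood of Kcnq1ot1. Their median gene span was 20.5 kb (quartiles 8.67 to 41.3 kb) against 19.6 kb for all tested genes. The longest run of A inside their annotated transcripts had a median of 7 bases, as in all tested genes, and 3.61% held a run of at least 15 A against 9.84% of all tested genes. Introns were not searched, so runs of A elsewhere in the gene spans are not known, and priming within these genes was not tested. Outside the 87, longer genes had higher log2 changes: the median was -0.41 for 476 genes spanning under 10 kb, -0.37 for 476 of 10 to 30 kb, -0.19 for 416 of 30 to 100 kb and 0.05 for 134 of 100 kb or more. Whether counting used strand is not given in the sources used here, so reads of antisense and overlapping genes could not be separated, and pseudogenes such as Gm17821 may share reads with their parent genes.

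The endocrine messages of rich cells were reduced rather than gone. Levels from here on are CPM of the transcripts outside Kcnq1ot1 and the 87 genes, called remainder CPM, so that the room those RNAs take does not enter them. Genes too low to be tested still took more of this remainder in rich sums, 38.4 to 74.7% against 31.4 to 38.5% in the others. That leaves less room for the tested genes, so part of a lower remainder CPM can come from it. Log2 changes are from edgeR with TMM normalisation, and the median of all 1627 tested genes was -0.25 (-0.46 with RLE size factors). The scale with the median gene set to 0 is an alternative chosen after seeing the data. The 12 hormone genes in the files summed to 1148 to 150122 remainder CPM over the 11 rich sums (median 45038) and to 8909 to 247013 in the others (median 132030), lower in rich cells in 11 of 11 pairs. Of 8 hormone genes tested, 0 were called higher and 5 lower, with a median log2 change of -1.53, where 11.2% of all tested genes were called lower. Cell by cell, 51 of 147 rich cells (34.7%) had a hormone share at or above the lower quartile of the other cells of their plate and condition. At or above the median of those other cells were 16 (10.9%), and 18 (12.2%) lay below every one of them. On Gcg plate 1 at 4 days the lower quartile was only 0.403%. The lowest of the 24 rich cells there had 0.462%, so all 24 are among the 51.

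The hormones called lower were neurotensin, peptide YY, secretin, ghrelin and cholecystokinin. Sct, the secretin gene, had 177 to 14999 remainder CPM in rich cells (median 1221) and 1699 to 38504 in the others (median 7036), lower in 11 of 11 pairs although the ranges overlap (-1.62 ± 0.44, adjusted p = 0.0048). Nts was at -2.16 ± 0.51 (adjusted p = 0.0012), Pyy at -1.79 ± 0.44 (0.0021), Ghrl at -1.44 ± 0.53 (0.045) and Cck at -1.17 ± 0.44 (0.0495). With the median gene set to 0, Nts, Pyy and Sct were still called (3 of 8), and Ghrl and Cck were not, nor were these last 2 called without Gcg plate 2 (adjusted p = 0.32 and 0.12) or without the Gip plate (0.064 and 0.094), while Ghrl fell short without Tac1 4 day plate 1 as well (0.056) and Cck without that plate (0.079) or Gcg plate 1 (0.056). With 4 day pairs alone 5 hormones were tested and 0 were called by edgeR (2 at an unadjusted p under 0.05).

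Of the genes that name the reporters, Gip and Gcg were abundant on their own plates and Tac1 was not. On the Gip plate, Gip in rich cells was at 63742 remainder CPM at 4 days (95% Poisson interval 62169 to 65344) against 141423 in the other cells, and at 37334 (33900 to 41022) against 155885 at 24 h. All 51 rich cells of the 4 day pair held Gip transcripts, and the highest of them gave 7.97% of the sum. On the Gcg plates, Gcg in rich cells was at 3050 (Gcg plate 1) and 22044 (Gcg plate 2) in untreated cells, against 49015 and 81047 in the others. At 4 days the order was the other way, without a test of its own: 5958 against 1904 on Gcg plate 1 and 8469 against 4293 on Gcg plate 2. On the Tac1 plates the rich cells of the 4 day pairs held 0, 7 and 1 Tac1 transcripts, too few to set against the 185 to 675 remainder CPM of the other cells. Over the 11 pairs Gip was at -1.90 ± 0.75 (adjusted p = 0.065) and Gcg at -1.03 ± 0.56 (0.18), so neither passed the test. Sst, somatostatin, was at -0.05 ± 0.56 (0.97). In sums of few cells 1 cell can carry a gene: at 24 h on Gcg plate 1 the Sst level of rich cells was 28499 against 581, and 94.6% of it came from 1 of 11 cells.

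Genes of the secretory granule were lower in part. Of 15 tested, 0 were called higher and 7 lower, with a median of -0.86, where 11.2% of all tested genes were called lower. Resp18, an endocrine granule protein, had 0 to 261 remainder CPM in rich cells (median 61.4) against 167 to 813 (median 341), a change of -2.03 ± 0.37 (adjusted p = 2.6e-05). The granins Scg2 (-1.62 ± 0.37) and Chgb (-1.38 ± 0.40), the carboxypeptidase Cpe (-1.40 ± 0.34), the prohormone convertase Pcsk1 (-1.26 ± 0.32) and the granule membrane protein Ptprn2 (-1.31 ± 0.31) were called lower as well (edgeR, adjusted p of 0.0098 or below). These 6 were also called with the median gene set to 0. RLE size factors and DESeq2 each called 10 of the 15 lower. Chga, the other main granin, was at -0.86 ± 0.46 (adjusted p = 0.18). On the Tac1 pairs, where the sorted cells are rich in it, Chga was at 2483 to 10787 remainder CPM in rich cells against 21544 to 36649 in the others, and these ranges do not overlap. Genes too low to be tested held 58.0 to 74.7% of the remainder in these rich sums and 37.2 to 38.5% in the others. Of 10 endocrine transcription factors tested, the zinc finger factor Insm1 (-1.56 ± 0.34, adjusted p = 0.00037) and the basic helix-loop-helix factor Neurod1 (-1.28 ± 0.35, 0.0066) were called lower and 0 higher. With so few genes, 2 of 10 is not far from the 11.2% called lower among all tested genes. Neurod1 was lower in 11 of 11 pairs and Insm1 in 10 of 11, and both were called with the median gene set to 0. The count of factors called lower depended on the scaling, with 8 of 10 under RLE size factors and 7 of 10 by DESeq2. These scalings called 469 and 577 of all 1627 tested genes lower. Without Gcg plate 1, Chgb (adjusted p = 0.051) and Neurod1 (0.057) were not called by edgeR.

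**Figure D5:**
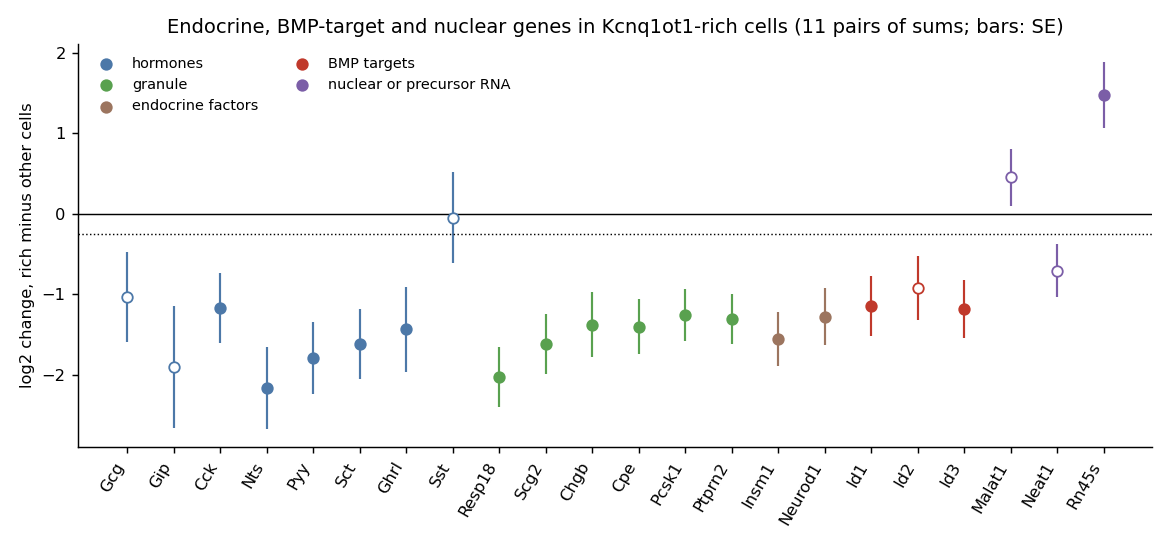
Log2 change between rich and other cells with its standard error over 11 pairs, on the TMM scale, for hormones, granule genes, endocrine factors, BMP targets and nuclear or precursor RNAs. Filled points passed an adjusted p of 0.05, open points did not, and the dotted line is the median of all tested genes at -0.25. Hormones other than Sst lie between -1.03 and -2.16, and Rn45s stands highest at 1.47.

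Of the Id genes, direct targets of BMP signalling, Id1 and Id3 were called lower in rich cells over all 11 pairs, of which 9 had received BMP4. Id3 was at -1.18 ± 0.36 (adjusted p = 0.015), Id1 at -1.14 ± 0.37 (0.022) and Id2 at -0.92 ± 0.39 (0.086, edgeR), so 2 of 3 were called lower and the median was -1.14. Among all tested genes 11.2% were called lower. None of the 3 was called by edgeR with the median gene set to 0 (2 at an unadjusted p under 0.05), and DESeq2 called all 3 lower. Id1 was not called without Gcg plate 2 (adjusted p = 0.10), nor Id3 without Tac1 plate 1 (0.063). At 4 days Id1 in rich cells was at 105 remainder CPM on Gcg plate 1 (95% Poisson interval 52.4 to 188), 225 on the Gip plate (141 to 341) and 251 on Tac1 plate 1 (81.5 to 585), against 217, 425 and 777 in the other cells. On Gcg plate 2 and Tac1 4 day plate 1 it had 0 counts in rich cells, which allows up to 157 and 265 remainder CPM, and on Tac1 plate 2 it had 1. Id1 was scarce without BMP4 in both classes: on Gcg plate 1 untreated rich cells held 1 count (15.3 remainder CPM) and the other cells 4 (5.38 remainder CPM). Id1 transcripts were thus detected in rich cells given BMP4 on 5 of 6 plates. At 4 days the level was lower than in the other cells on Gcg plate 1, the Gip plate and Tac1 plate 1. The rich sums of the remaining 4 day pairs held 0 or 1 counts, too near the floor to give a level. At 24 h Id1 was at 155 in rich against 132 in other cells on Gcg plate 1, 22.7 against 163 on Gcg plate 2 and 86.2 against 112 on the Gip plate, with 7, 1 and 1 counts in the rich sums. An interaction of class with condition was not tested, since 2 plates had an untreated pair.

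Of the listed nuclear RNAs, only Malat1 and Neat1 were abundant enough to test, and neither was called higher. Malat1, a nuclear speckle RNA, had 2467 to 17912 remainder CPM in rich cells (median 8211) and 3797 to 27500 in the others (median 5115), with a log2 change of 0.45 ± 0.36 (adjusted p = 0.37). On this scale it was higher in rich cells in 7 of 8 Gcg and Gip pairs and lower in 2 of 3 Tac1 pairs. Neat1, the scaffold of paraspeckles, was lower in rich cells on the scale without Kcnq1ot1 alone in 11 of 11 pairs and in 10 of 11 on the remainder scale (-0.71 ± 0.33, adjusted p = 0.11). Of the 2 nuclear RNAs tested, 0 were called by edgeR (1 at an unadjusted p under 0.05), and DESeq2 called 1, lower. Rn45s, the precursor of ribosomal RNA made in the nucleolus, was chosen after its values were seen: it had 34553 to 185715 remainder CPM in rich cells (median 84954) and 21009 to 60258 in the others (median 28428), a change of 1.47 ± 0.41 (adjusted p = 0.0071), higher in 11 of 11 pairs on this scale and in 9 of 11 on the scale without Kcnq1ot1 alone. The imprinted lncRNA Meg3 was too scarce, with 0 to 16 counts per rich sum. Of the Kcnq1 imprinted domain only the membrane protein gene Cd81 was tested, and it was at -0.98 ± 0.30 (adjusted p = 0.015), lower in 11 of 11 pairs on the scale without Kcnq1ot1 alone, but was not called with the median gene set to 0 or without Gcg plate 2 (adjusted p = 0.12). Kcnq1, on the strand opposite to Kcnq1ot1, had 0 to 9 counts per rich sum.

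The largest falls were sought among called genes with a mean log2 CPM of 5 or more and 1 sign in every pair. They were Fxyd3 (-2.08 ± 0.49), a regulator of the sodium pump, Eef1a1 (-1.89 ± 0.34), and Hopx (-1.88 ± 0.34), an atypical homeobox factor, beside Resp18. Fxyd3 was near the floor in rich cells, at 0 to 177 remainder CPM (median 0) against 79.7 to 337 in the others. Eef1a1 had 0 to 971 remainder CPM in rich cells (median 225) and 756 to 2366 in the others (median 1238), ranges that overlap. On the scale without Kcnq1ot1 alone its 0 to 708 CPM did not reach the 749 to 2321 CPM of the others. Plac8 and the histone gene H3f3b fell by 1.66 and 1.56 on the log2 scale without overlap of their CPM on that scale. Of 64 cytosolic ribosomal protein genes, 2 were called higher (Rpl7a, and Rpl29, which was not called without Gcg plate 2) and 5 lower (Rpl5, Rpl23, Rps13, Rps21, Rps24), with a median of -0.44, where 11.2% of all tested genes were called lower. The lower count of this list was 0 with the median gene set to 0, 28 with RLE size factors and 38 by DESeq2, with 2 higher under each. Their summed level was 18325 to 48409 remainder CPM in rich cells and 30053 to 54931 in the others, lower in 10 of 11 pairs. Of 61 nuclear genes of oxidative phosphorylation, 0 were called higher and 6 lower (median -0.34), no larger a share than among all tested genes. The counts were 1 higher and 1 lower with the median gene set to 0, and 21 and 26 lower with RLE size factors and DESeq2. Of 7 genes of the unfolded protein response Hspa5, Pdia6 and Xbp1 were lower (3, with 0 when the median gene was set to 0 and 6 under RLE size factors or DESeq2), and of 9 immediate early and heat shock genes Fos, Ier2 and Egr1 were lower (3; Egr1 at -1.47 ± 0.31; the 1 still called with the median gene set to 0). Of 17 splicing and speckle genes 1, Ddx5, was lower, while Srrm2 was higher with the median gene set to 0, and of 2 p53 targets 1, Btg2, was lower (0 on that scale). By edgeR, Hspa5, Pdia6 and Xbp1 were not called without Gcg plate 2 (adjusted p = 0.099, 0.070 and 0.071), Fos not without Gcg plate 1 (0.050049), and Pdia6, Ier2 and Ddx5 not without the Gip plate (0.066, 0.071 and 0.072) or Tac1 plate 1 (0.063, 0.10 and 0.10), nor Ier2 without Tac1 4 day plate 1 (0.056) and Ddx5 without Tac1 plate 2 (0.061). Of 4 genes of serotonin handling, the degrading enzyme gene Maoa was higher (2.84) and Gch1, which makes a cofactor of its synthesis, lower (-0.85, not called on that scale or without any 1 of 5 of the 6 plates). Of 2 interferon genes and 1 histone gene 0 were called by edgeR (0 and 0 at an unadjusted p under 0.05), and DESeq2 called the histone gene Hist1h2bc lower. Genes too low to be tested took a larger share of the remaining transcripts in rich cells, 38.4 to 74.7% (median 43.4%) against 31.4 to 38.5% (median 32.7%), higher in 11 of 11 pairs.

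The share of calls in each direction depends on the scaling. TMM gave 149 higher and 183 lower genes (44.9% higher), RLE size factors 133 and 469 (22.1%), and centring on the median gene, chosen after seeing the data, 194 and 60 (76.4%). All 149 genes called higher with TMM were also called when centred, and 60 of the 183 called lower. Without the Gip plate, which gave 57 of the 147 rich cells, 192 genes were called of 1109 tested, 95 higher and 97 lower.

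Of 9 enterocyte genes tested, intestinal alkaline phosphatase Alpi was called higher (1.48 ± 0.44, adjusted p = 0.013), the sucrase gene Sis lower (-1.08 ± 0.37, 0.028) and 7 were not called, with a median of 0.41. Both calls were lost without Gcg plate 2 (adjusted p = 0.12 and 0.093) or without the Gip plate (0.14 and 0.064), and with the median gene set to 0 the list gave 3 higher (Alpi, Apoa1, Apoc3) and 0 lower. Their summed level was 85.6 to 43613 remainder CPM in rich cells and 2298 to 34981 in the others, lower in 9 of 11 pairs. Of 3 goblet genes and 8 general epithelial genes 0 were called by edgeR (0 and 3 at an unadjusted p under 0.05; DESeq2 called 0 and 3, all lower), and with the median gene set to 0 the epithelial keratin Krt18 was called higher. Paneth, tuft, crypt and immune markers were too low to test. The 7 tuft genes summed to 0 to 3027 remainder CPM in rich cells (median 123) and 0 to 98.4 in the others (median 3.75), higher in 8 pairs and lower in 2. The 2 immune genes in the files summed to 0 to 257 (median 46.0) against 0 to 1.56 (median 0), higher in 8 pairs and lower in 1. The crypt genes summed to 0 to 259 against 20.5 to 159, higher in 8 pairs and lower in 3. The Paneth genes summed to 0 to 44.4 against 6.82 to 119, lower in 11 of 11, with Defa24 and Itln1 at 0 counts in rich cells. The part of these markers in the other results was not tested.

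Depth behind these values varied widely. Kept cells per plate numbered 30 to 268 and summed to 99865 to 2934214 transcripts. The rich sums of the 11 pairs came from 5 to 51 cells, and the other sums from 9 to 84. Since 8 of the 11 pairs are from the Gcg and Gip plates and 3 from Tac1 plates at 4 days only, the gene results mainly describe the former.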

How the data were processed

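The deposited values are expected counts (identifier-corrected, not whole) of transcripts per gene and well, which the authors made from reads aligned with BWA 0.6.2-r126 (per the submitters' processing notes, which name the build mm10). How aligned reads were assigned to genes, and whether by strand, is not given in the sources used here. Tac1 files list mitochondrial genes and Gcg and Gip files do not, so the 16115 genes of both kinds of file were used for gene tests, which lost 1.34 to 2.05% of a plate's transcripts. BMP4 condition came from the deposited layout of well columns, or from the sample label for plates of 1 condition.

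Expected counts of cells were summed by plate, condition and class (at least 5 cells each), rounded, and tested with edgeR 4.0.16 (quasi-likelihood, TMM, Benjamini-Hochberg adjusted p under 0.05) with the pair as a block. The block joins cells of the same plate and condition. Within pairs the deviations correlated at 0.131 to 0.520. Kcnq1ot1 was left out of the table and library sizes. DESeq2 1.42.0, limma 3.58.1 (voom with plate correlation), RLE size factors, other filters and thresholds, and leaving out each plate were alternatives. With voom, where the correlation within plates was 0.196, 136 genes were called higher and 145 lower. Of the 149 and 183 genes called by edgeR, voom called 135 and 132. The edgeR procedure was also run on simulated data. These held no genes at least 8-fold higher, so the simulation cannot show how such genes affect the scaling. No doublet caller was run. Single values were compared over plates with exact sign-flip permutation tests (scipy 1.17.1), and 95% intervals are Wilson or exact Poisson and cover counting error only.

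Genes were named by these rules: from the 12 largest rises and 12 largest falls among called genes of 1 sign in every pair whose mean log2 CPM was 5 or more (ribosomal protein genes left out), every tested gene of the hormone, nuclear RNA, BMP target and Kcnq1 domain lists, up to 4 genes of each other list by smallest p, and the 10 genes most like Kcnq1ot1. The cells, rules and lists were chosen with earlier results of these data known. Any other gene named was chosen after its values were seen.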

Additional observations from a re-analysis of the deposited data

Results flagged for a closer look

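The spike-in difference between rich and other cells had opposite signs by reporter line on plates with all conditions. It was 2.13 points on average on the Gcg plates (1.88 and 2.38) and -3.74 on the Tac1 plates (-7.37 and -0.100), and this difference between lines was not tested.

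Wells below the minimum of 2000 transcripts, which entered no comparison, held Kcnq1ot1-rich wells too. Among 682 wells with 500 to 2000 transcripts, 142 had at least 5% Kcnq1ot1, which is 20.8% (95% Wilson interval 17.9 to 24.0%).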

How the results depend on the processing

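The log2 ratio of transcripts per cell was -0.90 (exact permutation p = 0.0078) with wells of at least 1000 transcripts and -0.61 (0.023) with at least 3 cells per side. Neither value is independent of the rule that chose the rich cells. The spike-in difference changed sign to -0.157 and -0.183 points with at least 3 and at least 10 cells per side, and ran from -0.540 to 2.19 with 1 plate left out. The thinned gene difference was -217 with a 10% Kcnq1ot1 threshold, -217 (-217.45) with at least 3000 transcripts and -211 with at least 10 cells per side, each with too few plates to reach 0.05. It was -213 to -164 with 1 plate left out, and 25.8 outside the 87 genes. The mitochondrial difference with at least 10 cells per side left 1 plate and is not given. The 4 day difference in share was the same 23.9 points without the pairing by plate (no replicate block), with an exact permutation p of 0.0079. The 24 h difference changed sign to 0.599 with at least 1000 transcripts and 0.625 as a percent of wells, and ran from -3.48 to 1.39 (without Tac1 plate 2).

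Genes called numbered 718 with DESeq2, 602 with RLE size factors, 4948 without a filter on low counts, 536 and 195 with at least 3 and 10 cells per side, 638 with at least 1000 transcripts, 159 (of 692 tested) with other cells within the depth range of the rich cells, and 259 with no replicate block. With 1 plate left out they numbered 192 (without the Gip plate) to 379. Without a filter, 14 of the 332 called genes had the other sign, among them Rpl29 at -0.069. The cause of these differences was not tested, except that fewer genes were tested with matched depth. For 74 genes followed singly, 1509 alternative values kept their sign and side of the threshold in 1288, lost the call in 174, gained it in 46 and changed sign in 1. Rich sums of 5 to 51 cells limit every gene result.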
